A study of Homo sapiens with 36 samples.

Results

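Aminoacyl-tRNA synthetases are the enzymes that join each amino acid to its transfer RNA, and 36 genes of this family were followed here among the 21950 genes of a deposited expression table. They were taken by name from a fixed list: 20 encode cytosolic enzymes or subunits, and 16, whose symbols end in 2, encode mitochondrial enzymes. All 36 passed the filter on low values, which kept 10586 genes. The RNA came from K562, an established human leukaemia line with red-cell features, kept in incubators at 21%, 5% or 1% oxygen and collected at 6 h, 24 h, 3 d and 6 d, with 3 libraries in each of the 12 groups. All groups shared the same medium and plate format, the labels name no genetic change or drug in any group, and 21% oxygen was the control. Cells were passaged at 3 d, after the 6 h and 24 h collections, so a passage and time cannot be told apart where 6 d is compared with earlier times. The line is a single cultured tumour line, and the labels do not say whether replicate libraries came from separate cultures, so each p-value reflects how much these libraries vary, which may be technical. Because RNA was bulk, fewer cells making a transcript and less transcript per cell cannot be told apart.

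Protein synthesis runs in 2 compartments with separate enzymes. In the cytosol, 8 of the 20 cytosolic genes (EPRS, IARS, LARS, MARS, QARS, KARS, RARS and DARS) encode members of the multisynthetase complex, which is held together by the scaffold proteins AIMP1, AIMP2 and EEF1E1. Mitochondrial synthetases are made from nuclear genes, imported, and charge the transfer RNAs used to translate the few respiratory chain proteins encoded in mitochondrial DNA. GARS and KARS are exceptions, since each encodes both a cytosolic and a mitochondrial form. When amino acids run short, uncharged transfer RNA activates the kinase GCN2, and the transcription factor ATF4 then raises many cytosolic synthetase genes through an amino acid response element in their promoters.

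The amino acid response motif was searched for as TGATGNAA (N is any base) on both strands of the RefSeq promoter windows of GRCh38.p14, which run from 250 bases before to 50 bases after the annotated start. Some genes have more than 1 window, and the counts are of genes with a match in any of them. Of the cytosolic genes, 16 had a window and 7 of these held the motif (43.8%). Of the mitochondrial genes, 14 had a window and YARS2 alone held it (7.14%). The share was 4.46% of the 27305 genes in the promoter table and 2.43% of the 7808 among them with a mean of at least 1 FPKM. The letters below show the element and the bases beside it in genes that are followed by time and oxygen further on. The search sets every base of the element but N, so its likeness between genes is not a result. Each line gives the 30 bases around the motif on the strand of the gene, with the motif in capitals, so that TTGCATCA is the same element read on the opposite strand.
AARS: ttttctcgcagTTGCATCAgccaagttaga
CARS: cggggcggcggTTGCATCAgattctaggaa
GARS: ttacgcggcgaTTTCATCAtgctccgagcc
IARS: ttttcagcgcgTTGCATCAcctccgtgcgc
MARS: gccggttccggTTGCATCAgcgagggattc
NARS: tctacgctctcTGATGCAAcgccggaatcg
TARS: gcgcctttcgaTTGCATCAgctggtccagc
YARS2: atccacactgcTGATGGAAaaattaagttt

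The windows lie at chr16:70289675-70289704 on the minus strand (AARS), chr11:3057407-3057436 minus (CARS), chr7:30594834-30594863 plus (GARS), chr9:92293692-92293721 minus (IARS) and chr12:57488053-57488082 plus (MARS). Those of NARS, TARS and YARS2 lie at chr18:57621804-57621833 minus, chr5:33440956-33440985 plus and chr12:32756076-32756105 minus. The motif began 15 bases after the annotated start in NARS and 3 bases after it in TARS. In the other genes it lay between 2 bases (CARS) and 197 bases (YARS2) before the start. A match is a description of the letters and does not show that a factor bound there.

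The MYC-type E-box CACGTG, searched on both strands, was found in 1 of 16 cytosolic genes (IARS, where it lay apart from the amino acid response motif) and in 3 of 14 mitochondrial genes. These are CARS2, EARS2 and MARS2, of which MARS2 and EARS2 are among the genes with the largest falls below. Other genes with large falls had no CACGTG, among them YARS2, FARS2 and FARSA. Their differences at 3 d in 1% oxygen were -1.02, -0.84 and -1.20. The share was 21.4% of the mitochondrial genes against 13.0% of measured genes. No test of the E-box was made. The letters are shown for MARS2 and EARS2, picked for their falls, each with the E-box in capitals.
MARS2: tgcgcctctcaCACGTGctgtcagaacgcc
EARS2: agggagaagccCACGTGtgctattccatcc

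They lie at chr2:197705347-197705376 on the plus strand, with the E-box starting 11 bases before the start of MARS2, and at chr16:23557347-23557376 on the minus strand, 15 bases before the start of EARS2. The core of the hypoxia response element, ACGTG, lies inside CACGTG and was present in 4 of 16 cytosolic and 5 of 14 mitochondrial genes (35.7%), against 33.3% of measured genes.

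Expression was given as FPKM, fragments per kilobase of transcript scaled for the size of the library, so levels can be compared between genes. The read depth behind the values is not known from the table. In 35 libraries between 14512 and 19543 genes were above 0, but replicate 3 of 1% oxygen at 3 d had 7220. In that library 435 of 3699 genes with a median above 20 FPKM were listed at 0, against at most 7 in any other, and 7 mitochondrial and 0 cytosolic synthetases were at 0. It was left out of the fit, so 1% oxygen at 3 d has 2 libraries, and values with it are given where they change a result. The K562 markers HBE1, HBG1 and HBZ, which are globin genes, and ALAS2 and TFRC were expressed in each of the 35 libraries. Of 5 lymphoid markers, CD3D ranged from 39.5 to 441 FPKM while CD3E, which pairs with it in T cells, reached 0.420 and the other 3 at most 1.86. Endothelial and fibroblast marker lists summed to at most 2.73 and 13.5 FPKM. The 9 measured members of a list of oxygen-regulated genes, such as CA9 and EGLN3, were all higher in 1% oxygen at 3 d, by 1.87 to 5.03 on the log2 scale.

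Cytosolic synthetase mRNAs were several times more abundant than mitochondrial ones. Mean levels over the 35 libraries ran from 33.8 FPKM for VARS to 277 FPKM for WARS among the cytosolic genes, with a median of 137 FPKM. Among the mitochondrial genes they ran from 2.35 FPKM for CARS2 to 65.7 FPKM for IARS2, with a median of 21.8 FPKM. The 3 most abundant cytosolic mRNAs were those of WARS, SARS and GARS (277, 270 and 260 FPKM), which charge tryptophan, serine and glycine. The least abundant were CARS, LARS and VARS (61.4, 50.4 and 33.8 FPKM), for cysteine, leucine and valine. Of the mitochondrial genes, IARS2, RARS2 and NARS2 led (65.7, 50.3 and 40.4 FPKM), and PARS2, VARS2 and CARS2 were last (8.03, 6.52 and 2.35 FPKM). The ranges overlapped, since IARS2 lay above CARS, LARS and VARS, and RARS2 and NARS2 above VARS.

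The mitochondrial genes also moved more between groups. The highest group mean divided by the lowest had a median of 1.52 over the cytosolic genes and 1.85 over the mitochondrial genes. This ratio also takes in the spread between libraries, which can weigh more on genes of low FPKM, such as CARS2 (2.35 FPKM, ratio 3.51). The lowest group was often 1% oxygen at 3 d, which has 2 libraries. TARS, for threonine, moved least in the cytosol (1.28) and FARSA most (2.67). RARS2 moved least among the mitochondrial genes (1.41) and MARS2, the mitochondrial methionine enzyme, most (6.11).

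The class comparison was summarised in each library as the mean log2(FPKM + 1) of the 20 cytosolic genes minus that of the 16 mitochondrial genes. In 21% oxygen it was 2.62 ± 0.0697 (SD, n = 3) at 6 h, 2.72 ± 0.0433 at 24 h, 2.71 ± 0.0475 at 3 d and 2.55 ± 0.0232 at 6 d. In 5% oxygen it was 2.54 ± 0.0319, 2.59 ± 0.0278, 2.92 ± 0.0383 and 2.84 ± 0.0172 at the same times. In 1% oxygen it was 2.62 ± 0.0309, 2.56 ± 0.0167, 3.04 ± 0.0548 (n = 2) and 2.85 ± 0.0456. Every low-oxygen library of 3 d and 6 d, from 2.80 upward, lay above every 21% library, which reached 2.77, and the 6 h and 24 h libraries in low oxygen did not. Turned back from log2, this difference is a ratio of geometric means of FPKM + 1. At 3 d the ratio was 6.52 in 21% and 8.22 in 1% oxygen, and at 6 d it was 5.84 and 7.22. No test is given for this difference of lists.

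**Figure D1:**
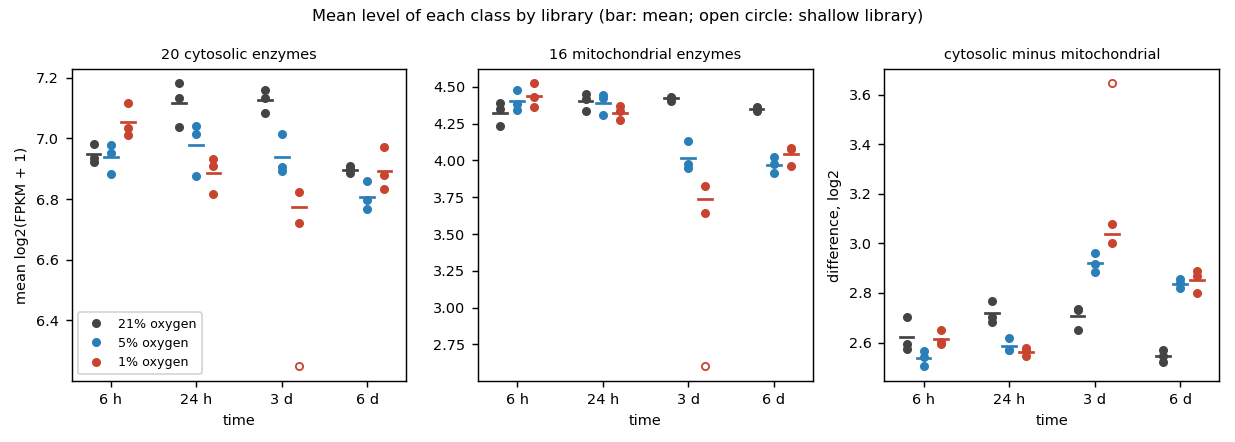
Mean log2(FPKM + 1) of the cytosolic genes (left), of the mitochondrial genes (middle) and their difference (right) in each library, by time and oxygen; bars are group means and the open circle is the shallow library. The mitochondrial mean drops at 3 d and 6 d in both low-oxygen levels, and the difference there lies between 2.80 and 3.08 without the shallow library.

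At 6 h no synthetase differed between oxygen levels by limma's moderated test with Benjamini-Hochberg adjustment over all genes. In 1% against 21% oxygen 0 of 36 passed, beside 0.0945% of all genes, and 6 had an unadjusted p under 0.05. In 5% against 21% oxygen 0 passed, beside 0% of all genes, and again 6 had an unadjusted p under 0.05. The share of all genes under that unadjusted threshold is not given here, so neither count of 6 is read as a response. The cytosolic median was 0.11 and the mitochondrial median 0.12 on the log2 scale in 1% oxygen, with 0.05 over all genes.

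At 24 h on the deposited FPKM scale, 14 of 20 cytosolic genes were lower in 1% than in 21% oxygen and 0 were higher, while 22.1% of all genes were lower and 16.6% higher. Of the 16 mitochondrial genes 2 were lower and IARS2 was higher. This cytosolic fall turned round with the scale: after rescaling each library to the same total (TPM), 6 cytosolic genes were higher and 0 lower, and after quantile normalization 4 were higher and 1 lower. Rescaling to TPM shifted the median of all genes to 0.39. Shares of all genes given throughout are on the deposited FPKM scale. Counts with TPM or after quantile normalization have no such share beside them, so a shift common to all genes is not separated out. No cytosolic gene was lower on all 3 scales. In 5% oxygen at 24 h, 8 cytosolic genes were lower and 0 higher, beside 18.7% of all genes lower and 9.53% higher; with TPM 13 were higher and 0 lower, and after quantile normalization 8 were higher and 1 lower. It also rested on replicate 3 of 21% oxygen at 24 h, where FARSA stood at 306 FPKM against 238 and 235 in the other libraries: without it 1 synthetase passed in place of 10. That library stood apart as a whole, with the highest total FPKM of the 35 (1171415) and the fewest genes above 0 (14512). All comparisons with 21% oxygen at 24 h use it. Without replicate 3 of 5% oxygen at 24 h 4 passed.

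In 1% and in 5% oxygen at 24 h, IARS2 was the only synthetase called higher on all 3 scales. It charges mitochondrial isoleucine transfer RNA. Its levels in 21% oxygen were 58.9, 45.7 and 26.8 FPKM, in 5% oxygen 58.1, 86.6 and 76.8 FPKM, and in 1% oxygen 84.5, 85.7 and 79.2 FPKM. The 1% libraries lay above all 21% libraries, whereas the 5% libraries touched their range. The difference was 0.98 ± 0.20 (log2, SE, adjusted p = 0.00057 by limma) in 1% and 0.79 in 5% oxygen. The call in 5% oxygen was lost without replicate 3 of 21% oxygen, the library of highest total FPKM. In 1% oxygen the difference was 0.67 to 1.22 as each library was left out, and passed each time. At 3 d the order was the opposite, with 92.2, 95.5 and 91.7 FPKM in 21% oxygen and 49.9 and 54.7 FPKM in 1% oxygen, a fall of 0.82 ± 0.23. The 21% libraries of 6 h spread from 30.6 to 65.6 FPKM, so the early levels of this gene are the least certain of the family. NARS2, for asparagine, spread in a like way there, from 24.3 to 44.2 FPKM.

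At 3 d most synthetase mRNAs were lower in low oxygen. In 1% oxygen 13 of 16 mitochondrial genes fell and 0 rose, and 14 of 20 cytosolic genes fell while DARS rose; of all genes 28.6% were lower and 25.1% higher. The medians on the log2 scale were -0.61 for the mitochondrial genes, -0.34 for the cytosolic genes and -0.02 for all genes. In 5% oxygen 12 mitochondrial genes fell and 0 rose, and 12 cytosolic genes fell while DARS, AARS and CARS rose (CARS not without replicate 1 of 21% or replicate 3 of 5% oxygen), beside 29.4% of all genes lower and 15.7% higher. The mitochondrial, cytosolic and overall medians there were -0.40, -0.27 and -0.10.

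The mitochondrial falls at 3 d depended less on the scale than the cytosolic ones. In 1% oxygen 13 mitochondrial genes were lower after quantile normalization and 12 with TPM, with 11 lower on all 3 scales. Of the cytosolic genes, 8 were lower and 6 higher after quantile normalization, with a median of -0.08, and 11 were lower with TPM. The cytosolic genes lower on all 3 scales were FARSA, FARSB, HARS, KARS, MARS, QARS, VARS and YARS. With all 36 libraries in the fit, 14 mitochondrial and 16 cytosolic genes were lower, and the same 8 cytosolic genes passed. In 5% oxygen all 36 libraries gave 15 calls in place of 27, with 6 mitochondrial genes lower and 7 cytosolic genes lower and 2 higher. There, quantile normalization left 8 mitochondrial and 6 cytosolic genes lower, and TPM, which moved the median of all genes to -0.23, left 12 and 13. A list named nuclear-retained RNAs moved at the same time. Its sum was 1528 to 1615 FPKM in 1% and 1394 to 1653 FPKM in 5% oxygen at 3 d against 1073 to 1159 FPKM in 21% oxygen. Most of it was GAS5, which averaged 932 FPKM in 21%, 1269 FPKM in 5% and 981 FPKM in 1% oxygen. NEAT1 averaged 7.08, 20.9 and 39.8 FPKM and MALAT1 123, 192 and 493 FPKM in the same order. Replicate 3 of 5% oxygen (120 FPKM) lay within the 21% range of MALAT1. OIP5-AS1 was lower in both (34.5, 28.3 and 25.1 FPKM), and TUG1 in 5% oxygen (13.3 and 10.4 FPKM). CD3D stood out there too, and the lymphoid list summed to 319 to 324 FPKM in 1%, 297 to 443 FPKM in 5% and 93.6 to 105 FPKM in 21% oxygen. The part of either in the synthetase differences was not tested.

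**Figure D2:**
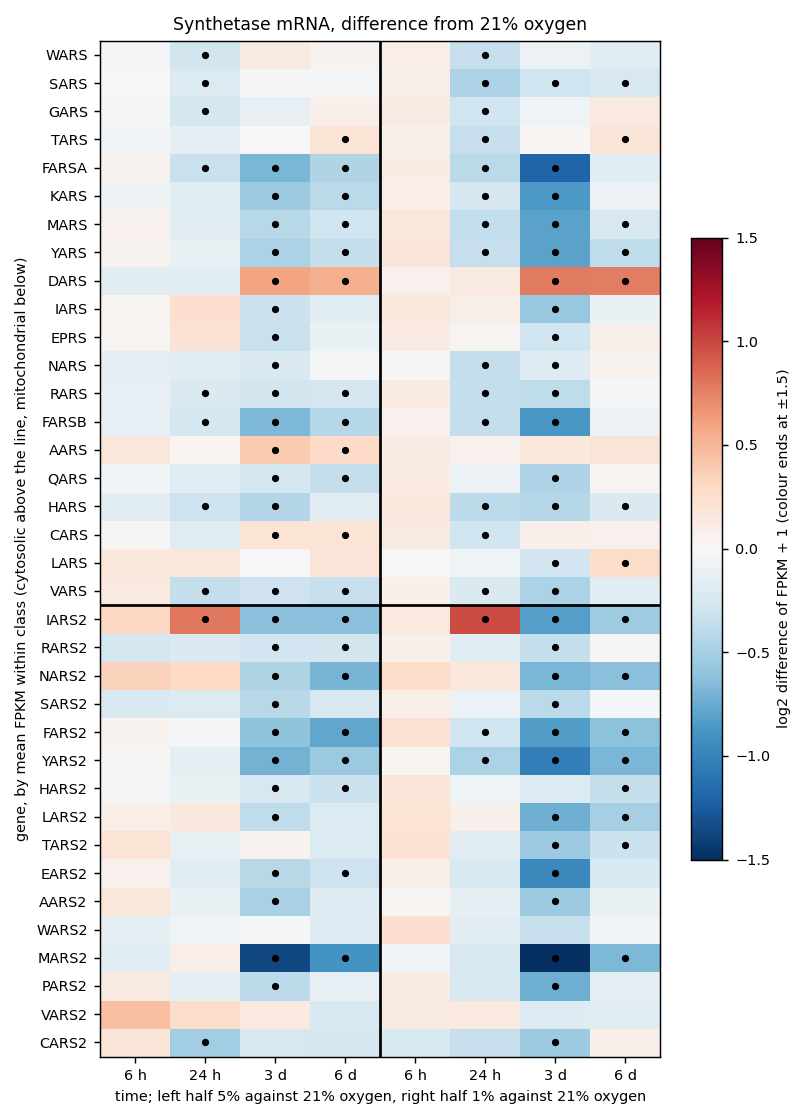
Log2 difference of FPKM + 1 from 21% oxygen for the 36 genes (rows, by level within class) at each time in 5% oxygen (left 4 columns) and 1% oxygen (right 4 columns); dots mark adjusted p under 0.05 by limma on the deposited FPKM scale. The 3 d columns are mostly blue with DARS red in both. At 3 d and 6 d 0 mitochondrial genes passed as higher, though some differences that did not pass are above 0, such as VARS2 in 5% oxygen at 3 d (0.15). The 24 h falls of cytosolic genes are not found with TPM scaling.

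DARS, the aspartate enzyme and a member of the multisynthetase complex, had the largest rises of the family at 3 d and 6 d. Its levels at 3 d were 122, 124 and 123 FPKM in 21% oxygen, 170, 187 and 199 FPKM in 5% oxygen, and 214 and 208 FPKM in 1% oxygen. The groups did not overlap and stood in the order of falling oxygen. The difference from 21% oxygen was 0.78 ± 0.08 in 1% (adjusted p = 1.3e-09 by limma) and 0.59 ± 0.07 in 5% oxygen. At 6 d the rise was still present, with 194, 206 and 218 FPKM in 1% oxygen, 178, 180 and 167 FPKM in 5% oxygen and 120, 123 and 118 FPKM in 21% oxygen. Over the 4 times DARS was also higher in 1% than in 5% oxygen, by 0.24 ± 0.03 (adjusted p = 3.0e-05 by limma). These calls held on all 3 scales and with all 36 libraries, where the shallow library read 226 FPKM. A gene on the opposite strand overlaps DARS in GENCODE, and no source used here says that strand was used in counting, so their reads cannot be told apart.

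FARSA and FARSB, the alpha and beta subunits of the cytosolic phenylalanine enzyme, fell together. FARSA stood at 222, 219 and 230 FPKM in 21% oxygen at 3 d, at 135, 142 and 141 FPKM in 5% and at 89.1 and 105 FPKM in 1% oxygen. FARSB stood at 107, 113 and 117 FPKM, at 69.1, 67.2 and 75.0 FPKM and at 55.0 and 67.9 FPKM in the same groups. For FARSA the groups did not overlap, and for FARSB both low-oxygen groups lay below every 21% library but overlapped each other. FARSA fell by 1.20 ± 0.09 and FARSB by 0.87 ± 0.09 in 1% oxygen (adjusted p = 1.1e-11 and 3.7e-09 by limma), and by 0.68 and 0.67 in 5% oxygen. Their mitochondrial counterpart FARS2, a single-chain enzyme, fell by 0.84 ± 0.12 in 1% and by 0.61 in 5% oxygen. At 6 d FARSA and FARSB were lower in 5% oxygen, by 0.45 and 0.43, but in 1% oxygen their differences were -0.17 and -0.08 and did not pass.

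KARS, YARS and MARS made up the rest of the large cytosolic falls at 3 d. MARS, for methionine, stood at 218, 229 and 235 FPKM in 21% oxygen, at 169, 164 and 179 FPKM in 5% and at 126 and 133 FPKM in 1% oxygen. The groups did not overlap, and the fall was 0.80 ± 0.08 in 1% oxygen. KARS, for lysine, fell by 0.86 ± 0.08, and YARS, for tyrosine, by 0.81 ± 0.07. In GENCODE exons of MARS overlap those of DDIT3, a stress-induced transcription factor gene on the opposite strand, which was higher at 3 d in 5% oxygen (339, 371 and 420 FPKM) than in 21% oxygen (75.9, 78.9 and 79.0 FPKM). Reads from such overlaps cannot be told apart without strand.

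In the multisynthetase complex, 7 of 8 synthetases fell and DARS rose at 3 d in 1% oxygen, against 7 falls and 0 rises among the 12 other cytosolic genes, beside 28.6% of all genes lower and 25.1% higher. The medians were -0.42 and -0.25. A list of 7 genes for complex scaffolds and transfer RNA handling had 6 falls and 0 rises, with a median of -0.74. The scaffold AIMP2 was at 35.6, 33.7 and 39.4 FPKM in 21% oxygen and at 16.5 and 21.4 FPKM in 1% oxygen, a fall of 0.91 ± 0.14. Of the other scaffolds EEF1E1 fell by 0.63 and AIMP1 by 0.44. The difference between complex members and the other genes was not tested.

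MARS2 had the largest fall of the family at 3 d. It stood at 13.5, 17.0 and 14.4 FPKM in 21% oxygen, at 5.35, 4.64 and 5.56 FPKM in 5% and at 2.42 and 3.27 FPKM in 1% oxygen. The 3 groups did not overlap. The fall was 2.06 ± 0.14 in 1% (adjusted p = 1.3e-12 by limma) and 1.37 ± 0.13 in 5% oxygen. The shallow library, left out here, read 33.4 FPKM, and with it the fall was smaller than that in 5% oxygen and did not pass (adjusted p = 0.052 by limma). The fall in 5% oxygen does not use that library, and in 1% oxygen at 6 d the levels were 9.21, 8.95 and 8.20 FPKM against 14.1, 13.6 and 16.2 FPKM, a fall of 0.67 that did not pass with all 36 libraries in the fit.

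YARS2 and EARS2, for tyrosine and glutamate, followed MARS2. YARS2 stood at 33.7, 33.8 and 32.6 FPKM in 21% oxygen at 3 d, at 20.3, 18.1 and 21.9 FPKM in 5% and at 13.3 and 19.0 FPKM in 1% oxygen. All low-oxygen libraries lay below all 21% libraries. The fall was 1.02 ± 0.11 in 1% oxygen. YARS2 was already lower at 24 h in 1% oxygen, with 24.0, 26.7 and 22.9 FPKM against 33.3, 31.6 and 38.4 FPKM, though with TPM scaling that call did not pass. EARS2 stood at 13.9, 13.6 and 15.1 FPKM in 21% and at 6.75 and 6.76 FPKM in 1% oxygen, a fall of 0.97 ± 0.11. The mitochondrial genes that did not pass in 1% oxygen at 3 d were WARS2, HARS2 and VARS2, with differences of -0.35, -0.20 and -0.19.

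**Figure D3:**
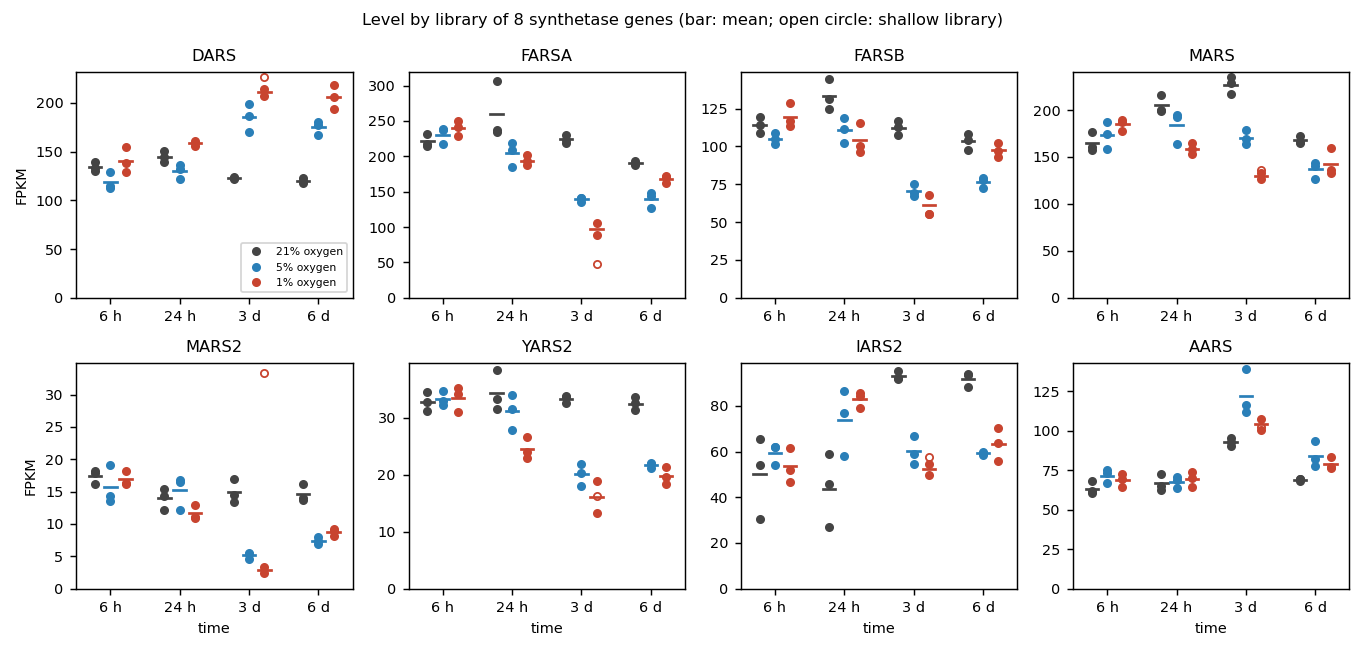
FPKM of 8 synthetase genes in each library by time, coloured by oxygen; bars are group means and open circles the shallow library. DARS separates upward at 3 d and 6 d (122 to 124 FPKM in 21% against 208 and 214 FPKM in 1% oxygen at 3 d), and MARS2 and YARS2 separate downward.

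Other genes of mitochondrial translation were read from a list of which 17 were measured. At 3 d in 1% oxygen 12 of the 17 fell and 0 rose, with a median of -0.53, beside 28.6% of all genes lower and 25.1% higher. TUFM, the mitochondrial elongation factor Tu, fell by 1.27 ± 0.08, its exchange factor TSFM by 1.05 ± 0.10 and the elongation factor GFM1 by 1.00 ± 0.07. QRSL1 and GATC, subunits of the amidotransferase that makes glutaminyl transfer RNA in mitochondria, fell by 0.53 and 0.51, whereas the difference of PET112, its remaining subunit, was -0.04 and did not pass. MTIF3, an initiation factor, and MTRF1L, a release factor, had differences of 0.26 and 0.04 and did not pass either. Of 8 cytosolic elongation and termination factors 3 fell and 0 rose, with a median of -0.23, beside the same shares of all genes.

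At 6 d the difference between the class means was still present. K562 markers of the red-cell kind moved at that time as well: HBZ averaged 18429 FPKM in 1%, 8073 FPKM in 5% and 1175 FPKM in 21% oxygen, and TFRC 845, 508 and 325 FPKM. ALAS2 averaged 284 FPKM in 1% and 125 FPKM in 5% oxygen and lay between 11.8 and 12.2 FPKM in 21% oxygen. Their part in the synthetase differences was not tested. In 1% oxygen 8 of 16 mitochondrial genes were lower and 0 higher, and 4 cytosolic genes were lower and 3 higher, beside 16.1% of all genes lower and 13.8% higher. In 5% oxygen 8 mitochondrial genes were lower and 0 higher, and 8 cytosolic genes were lower and 4 higher, beside 21.7% lower and 15.2% higher. The 20 calls in 5% oxygen became 10 with TPM (3 mitochondrial lower, 3 cytosolic lower and 4 higher) and 11 with all 36 libraries (4, 5 and 2), and those in 1% oxygen 9 with all 36. The rise of CARS in 5% oxygen was lost without 5 of the 6 libraries and that of TARS without replicate 2 of 21% oxygen. FARS2 and YARS2 fell by 0.62 and 0.69 in 1% and by 0.79 and 0.56 in 5% oxygen, on all 3 scales and with all 36 libraries. LARS, the leucine enzyme, and TARS were higher at 6 d in 1% oxygen, by 0.28 ± 0.08 and 0.19 ± 0.06. AARS, for alanine, was higher at 6 d in 5% oxygen, with 81.8, 93.2 and 77.7 FPKM against 68.4, 69.3 and 69.1 FPKM, a rise of 0.28 ± 0.08 that was lost without replicate 2 of 5% oxygen. In 1% oxygen the 6 d call of IARS2 was lost without any of the 6 libraries, that of HARS without 5 of them, that of MARS without 3, and those of TARS and SARS without 2 (for TARS, replicate 2 of 21% or replicate 3 of 1% oxygen).

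Within amino acids, the cytosolic and mitochondrial enzymes were set side by side in 17 pairs. FARS2 was paired with both FARSA and FARSB, and EPRS with both EARS2 and PARS2, so the pairs are not all separate. The cytosolic gene changed more in the upward direction in 12 pairs at 3 d and 13 pairs at 6 d in 1% oxygen, and in 12 and 16 pairs in 5% oxygen. At 24 h the count was 5 in 1% and 6 in 5% oxygen. Methionine showed the widest gap among the named pairs at 3 d, with -0.80 for MARS and -2.06 for MARS2, while for alanine the values were 0.16 for AARS and -0.54 for AARS2. For phenylalanine the cytosolic FARSA fell further than FARS2, at -1.20 against -0.84.

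Averaged over the 4 times, 12 cytosolic genes were lower and DARS and AARS higher in 1% than in 21% oxygen, and 10 mitochondrial genes were lower and 0 higher, beside 26% of all genes lower and 23.1% higher. In 5% oxygen 10 cytosolic genes were lower and 3 higher (DARS, AARS and LARS) and 9 mitochondrial genes were lower and 0 higher, beside 30.3% lower and 18.2% higher. With TPM, on which the median of all genes was 0.12 and 0.08, the 24 calls in 1% became 12 (5 cytosolic genes lower and 3 higher, 4 mitochondrial lower) and the 22 in 5% became 14 (4 lower and 6 higher, 3 lower and 1 higher). After quantile normalization the cytosolic split was 8 lower and 6 higher in 1% and 6 lower and 8 higher in 5% oxygen. The average covers times that differ: the oxygen difference varied with time for 31 of 36 genes in 1% oxygen, beside 63.3% of all genes by limma's F test, and for 21 of 36 in 5% oxygen, beside 42%. Both low levels were compared with the same 21% libraries, so their values are not independent. Directly between 1% and 5% oxygen 9 of 36 passed, beside 14.1% of all genes. DARS, QARS and SARS2 were higher in 1% oxygen, and SARS, LARS, YARS, YARS2, TARS2 and LARS2 were lower, by 0.11 to 0.19. Without replicate 1 of 1% oxygen at 3 d 5 passed, with YARS, YARS2, TARS2 and LARS2 lost, and the calls of QARS and SARS2 were lost without 13 and 11 of the 23 libraries. SARS2 is also uncertain, since 88.2% of the 25-base stretches of its transcript occur in other GENCODE transcripts, among them a readthrough transcript and the opposite-strand gene MRPS12.

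In 21% oxygen alone, part of the cytosolic family rose until 3 d and came down by 6 d. From 6 h to 3 d 9 of 20 cytosolic genes rose and 0 fell, beside 11.9% of all genes higher and 6.23% lower, and IARS2, TARS2 and FARS2 rose among the mitochondrial genes. AARS went from 60.2, 68.1 and 61.5 FPKM to 90.0, 92.8 and 95.1 FPKM, a rise of 0.54 ± 0.08 (adjusted p = 2.9e-05 by limma). MARS went from 161, 176 and 158 FPKM to 218, 229 and 235 FPKM, a rise of 0.46 ± 0.08. The libraries of these times did not overlap for either gene. WARS, YARS, GARS, CARS, IARS, SARS and LARS rose by 0.44, 0.40, 0.37, 0.36, 0.30, 0.26 and 0.23. At 24 h only CARS, WARS, MARS and GARS had passed, beside 1.81% of all genes higher, and none of these calls held with TPM or quantile scaling. The count of 4 became 0 without replicate 3 of either time and 1 without replicate 1 of 6 h, and 8 and 9 without replicates 1 and 2 of 24 h. From 6 h to 3 d, the calls of TARS2 and FARS2 were each lost without 4 of the 6 libraries.

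From 3 d to 6 d in 21% oxygen 7 cytosolic genes fell and 0 rose, beside 3.10% of all genes lower and 4.21% higher, and 0 of 16 mitochondrial genes passed, with 1 at an unadjusted p under 0.05. The falls were in WARS (-0.44), MARS (-0.43), AARS (-0.42), YARS (-0.40), SARS (-0.35), GARS (-0.35) and CARS (-0.34). These 7 also rose to 3 d, but both comparisons use the same 3 d libraries, so the reversal is partly built in. The passage at 3 d may also set 6 d apart from 3 d, and its part was not tested. In 5% oxygen the means of all 7 were also higher at 3 d than at 6 d, and in 1% oxygen those of 5, but not of MARS (130 FPKM at 3 d and 143 FPKM at 6 d) or YARS (121 and 123 FPKM). The level of AARS was higher at 3 d than at 6 d, with 112, 116 and 139 FPKM against 81.8, 93.2 and 77.7 FPKM in 5% oxygen and 100.2 and 108 FPKM against 76.1, 77.1 and 83.2 FPKM in 1% oxygen. WARS stood at 301 and 336 FPKM at 3 d in 1% oxygen and at 225, 217 and 229 FPKM at 6 d. The 7 genes passed both comparisons on all 3 scales, but with all 36 libraries in the fit 4 fell from 3 d to 6 d (AARS, MARS, SARS and WARS) and 5 cytosolic genes rose from 6 h to 3 d in place of 9. SARS lost its fall without replicate 3 of 3 d.

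The genes that rose to 3 d were partly those with the amino acid response motif printed above. Of the 7 cytosolic genes with it 5 rose (AARS, MARS, GARS, CARS and IARS), with a median of 0.36, and NARS and TARS did not pass. Of the 9 cytosolic genes with a window but no motif, WARS and SARS rose, and the median was 0.07. From 3 d to 6 d the medians were -0.34 with and -0.18 without the motif. In 1% oxygen at 3 d against 21%, 3 of 7 genes with the motif and 8 of 9 without it fell, with medians of -0.07 and -0.43. No test of the motif was made.

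A list of 32 genes of the ATF4 and amino acid response, 29 of them measured, was read at the same times. From 6 h to 3 d in 21% oxygen 13 rose and 2 fell, with a median of 0.34, beside 11.9% of all genes higher and 6.23% lower. ASNS, asparagine synthetase and a classic amino acid response gene, rose by 0.63 ± 0.08, and PHGDH, which opens serine synthesis, by 0.62 ± 0.07. ATF5 and DDIT3 fell, by 0.95 and 0.47. From 3 d to 6 d 14 fell and 0 rose, with a median of -0.37, beside 3.10% of all genes lower and 4.21% higher, among them PHGDH (-0.86) and ATF4 (-0.45). In 1% against 21% oxygen at 3 d the list split, with 13 higher and 11 lower, beside 25.1% and 28.6% of all genes.

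**Figure D4:**
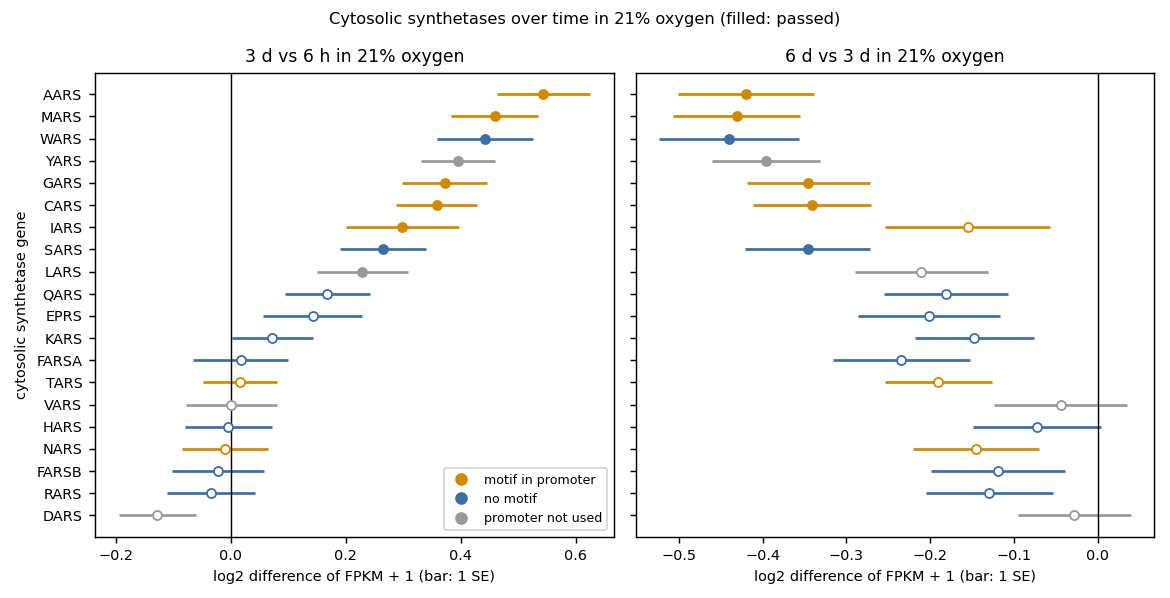
Log2 difference of FPKM + 1 (points) with its standard error (bars) for the 20 cytosolic genes in 21% oxygen, from 6 h to 3 d (left) and from 3 d to 6 d (right); filled points passed the test, and colour shows whether the promoter window held the amino acid response motif. The 9 filled points on the left are all above 0 and the 7 on the right are all below 0.

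From 6 h to 6 d in 21% oxygen FARSA and TARS were the cytosolic genes that passed, both lower, beside 11.8% of all genes lower and 17.6% higher. Among the mitochondrial genes IARS2 and NARS2 were higher, by 0.93 and 0.62, and SARS2 and AARS2 lower, by values of -0.37 and -0.30. The rises came from widely spread 6 h libraries and passed on all 3 scales, though that of NARS2 was lost without replicate 1 of 6 h. None of the 4 falls passed on all 3 scales, and those of FARSA and TARS were lost without any of the 6 libraries. The count of 6 was 3 without replicate 1 or 2 of 6 h or replicate 1 or 3 of 6 d.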

How the data were processed

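RNA-seq of 36 K562 libraries was used as deposited. Per the labels, poly(A) libraries were made by a Smart-seq2 protocol and sequenced as paired reads of 25 bases. The authors' FPKM values came from TopHat, Cufflinks and Cuffnorm, per the submitters' processing notes; the sources used here do not give versions, genome build, annotation or strand setting. Read depth is unknown from FPKM, so no counting interval was given. Libraries were grouped by labelled oxygen and time.

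From the FPKM table, log2(FPKM + 1) was fitted with limma 3.58.1 in R 4.3.3: 12 group means, trended prior, genes with mean FPKM of at least 1 (10586 genes), 23 residual degrees of freedom, two-sided tests, and Benjamini-Hochberg adjustment over all genes tested, with a threshold of 0.05. Fold changes are on this scale and understate changes of low genes. The shallow library was left out. No pair of columns was identical. The script was tested on simulated data. The family members, gene lists and tests were chosen with earlier results of these data known. Members named are up to 5 largest rises and 5 largest falls per class and comparison, the 3 highest and lowest per class, and up to 4 genes of other lists. Those just described by levels, and genes set beside a named one, were chosen after values were seen. Alternatives were a pseudocount of 0.1, no filter, a mean of at least 5, quantile normalization, TPM scaling, all 36 libraries, the compared groups only, a replicate block and leaving out each library. Overlaps and shared stretches came from GENCODE v29, and promoter sequences from RefSeq.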

Additional observations from a re-analysis of the deposited data

Results flagged for a closer look

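The difference between 1% and 21% oxygen varied with time for 31 of the 36 synthetases by limma's F test, and that between 5% and 21% oxygen for 21; these differences between times are what singled out the genes below. LARS was lower in 1% oxygen at 3 d (-0.29) and higher at 6 d (0.28), both past the threshold; the 3 d fall did not pass with TPM (-0.23) or after quantile normalization (-0.09), nor the 6 d rise with TPM (0.25). TARS was lower at 24 h (-0.34) and higher at 6 d (0.19). The 24 h value of TARS is on the deposited FPKM scale, on which most cytosolic genes were lower at that time; with TPM it was 0.12 and after quantile normalization 0.0073, neither past the threshold. Its 6 d rise did not pass with TPM (0.16), after quantile normalization (0.13) or with all 36 libraries. IARS2 in 1% oxygen was higher at 24 h (0.98) and lower at 3 d (-0.82) and 6 d (-0.54), and in 5% oxygen it took the same course (0.79, -0.63 and -0.62). In each of the 21% groups of 6 h and 24 h its replicates spread by more than 2-fold.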

How the results depend on the processing

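The counts below are synthetases past the threshold, of 36. With TPM scaling they were 12 for 1% against 21% oxygen over all times (24 as reported), 14 for 5% over all times (22), 24 for 5% at 24 h (10), 10 for 5% at 6 d (20), 4 for 1% against 5% (9), 0 for 24 h against 6 h in 21% oxygen (4) and 2 for 6 d against 6 h (6). After quantile normalization they were 11 for 1% at 24 h (17), 16 for 1% against 5%, 0 for 24 h against 6 h and 10 for 6 d against 6 h. With all 36 libraries they were 11 for 1% at 24 h, 9 for 1% at 6 d (15), 3, 15 and 11 for 5% at 24 h, 3 d (27) and 6 d, 4 for 1% against 5%, 0, 6 and 2 for 24 h, 3 d (12) and 6 d against 6 h in 21% oxygen, 4 for 6 d against 3 d (7) and 10 for variation with time in 5% (21). Fitting the compared groups only gave 6 and 0 for 1% and 5% at 24 h, 0 for 24 h against 6 h and 14 for 6 d against 3 d. For 24 h against 6 h, no filter gave 1 and a mean of at least 5 gave 7. The cytosolic minus mitochondrial difference between 1% and 21% oxygen over all times (0.12) was 0.25 after quantile normalization and 0.17 with all 36 libraries, and at 3 d (0.33) it was 0.40 with a pseudocount of 0.1, 0.61 after quantile normalization and 0.54 with all 36 libraries. For 5% over all times (0.07) it was 0.19 after quantile normalization. With TPM scaling, 24 h differences that were negative as reported became positive for FARSA, HARS, MARS, RARS and FARS2 in 1% (0.052, 0.057, 0.091, 0.097 and 0.15) and VARS, FARSA, HARS, WARS and FARSB in 5% oxygen (0.085, 0.12, 0.14, 0.18 and 0.19). Quantile normalization did so in 5% for FARSA (0.0087) and WARS (0.10). SARS2 in 1% against 5% was -0.22 with all 36 libraries. The cause of these changes was not tested. Leaving out each library gave 21 to 25, 0 to 0, 14 to 18, 20 to 28 and 10 to 13 for 1% over all times, at 6 h, 24 h, 3 d and 6 d. For 5% it gave 21 to 24, 0 to 0, 1 to 14, 23 to 25 and 17 to 19. It gave 5 to 10 for 1% against 5%, 0 to 9, 8 to 11 and 3 to 4 for 24 h, 3 d and 6 d against 6 h in 21% oxygen, 6 to 7 for 6 d against 3 d, and 28 to 32 and 19 to 24 for variation with time in 1% and 5%. The class difference ranged over 0.11 to 0.13 and 0.29 to 0.37 for 1% over all times and at 3 d, 0.07 to 0.08 for 5%, and 0.06 to 0.12 for 3 d against 6 h. Same-numbered replicates of the compared oxygen groups showed little shared deviation (median correlation 0.0018 over 23 pairs, 1 over 0.1). Over all groups, 7 of 66 pairs for replicate 1, 9 of 66 for replicate 2 and 10 of 55 for replicate 3 were over 0.1. The highest was 0.40, for replicate 1. A low correlation cannot exclude a shared batch, and the labels do not say whether the numbers pair the libraries. With the replicate block 23 synthetases passed for 1% over all times and 28 for 1% at 3 d. Low FPKM limits CARS2, VARS2 and PARS2 most.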

Other observations

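KARS makes the cytosolic and the mitochondrial lysine enzyme from 2 transcripts of the same gene, so its forms could be compared in the deposited transcript FPKM. The transcript for the mitochondrial form held 21.7% ± 1.22 (SD, n = 3) of KARS FPKM in 21% oxygen at 6 h and 23.4% ± 2.54 at 3 d. In 5% oxygen at 3 d it held 23.1% ± 1.08, and in 1% oxygen 18.2% and 30.9% in the 2 libraries. Both transcripts were lower in low oxygen at 3 d: the cytosolic one stood at 167 ± 6.09 FPKM in 21%, 115 ± 5.36 FPKM in 5% and 90.2 ± 5.64 FPKM (n = 2) in 1% oxygen, and the mitochondrial one at 51.3 ± 8.52, 34.6 ± 0.685 and 29.8 ± 12.4 FPKM. No test was made on transcripts. The forms share most of their sequence, and how Cuffnorm divides 25-base reads between them adds error that the SD may not show.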
